A study of Mus musculus with 14 samples.

Results

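The collagen gene family was taken as every gene whose mouse symbol is Col, a number, the letter a and a number, such as Col1a1, matched through the GENCODE M21 annotation to the Ensembl identifiers of the deposited table. This gave 44 genes of the 35275 in the table. RNA had been sequenced from brown adipose tissue of 14 C57BL/6 mice aged 8 weeks. Both genotypes carried floxed Lrpprc alleles (LrpprcFF), and Lrpprc encodes an RNA-binding protein of mitochondria. Knockouts also carried Ucp1-Cre, a recombinase driven by the promoter of Ucp1, so that the deletion falls in cells that express Ucp1, the uncoupling protein of brown fat cells. The mice were housed at 22 °C (4 controls and 4 knockouts) or at 30 °C, thermoneutrality (3 controls and 3 knockouts), and each library came from its own animal. The labels give brown adipocytes as the cell type, but the protocol starts from homogenised tissue and gives no step that isolates them. Collagen transcripts of every cell in the tissue were therefore counted together. In such bulk samples, more or fewer cells of a type and more or less RNA per cell cannot be told apart.

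Collagens are trimers of chains that wind around each other, and they form the main fibres and networks between cells. Fibrillar collagens (types I, III and V among them) build the fibres of connective tissue and are made mostly by fibroblasts. Type IV forms the sheet of basement membranes, which surrounds each fat cell and each capillary, and type VI forms beaded filaments just outside it, where adipose tissue is rich in them. New chains are hydroxylated, folded and exported by dedicated enzymes and chaperones, then trimmed, crosslinked and, in time, cut down by proteases.

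The libraries held 15.9 to 21.3 M fragments. Values are FPKM, fragments per length of transcript and depth of library, after each library was divided by a factor of 0.823 to 0.947 in controls and 1.05 to 1.2 in knockouts, called scaled FPKM here. Since FPKM is per length, levels of different genes can be set side by side, but differences by GC content are not removed. Lrpprc, the targeted gene, was at 25.3 to 57.3 scaled FPKM in controls and 8.84 to 11.2 in knockouts at 22 °C, and at 30.3 to 32.7 and 4.97 to 8.56 at 30 °C, so no library went against its genotype label. Sex-linked transcripts separated the temperatures: Xist was at 9.7 to 15.3 scaled FPKM in the 6 mice at 30 °C and at most 0.0139 in the 8 mice at 22 °C, and the Y-linked Ddx3y showed the reverse, at 16.3 to 23.9 at 22 °C and at most 0.0242 at 30 °C. Skeletal muscle markers varied widely within groups, with a summed level of 77.4 to 16189 scaled FPKM over the 14 libraries.

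Collagen transcripts were more abundant in knockouts than in controls at 30 °C. The summed level of the 44 genes was 688, 635 and 682 scaled FPKM in the 3 controls at 30 °C and 1492, 1007 and 1114 in the 3 knockouts. At 22 °C it was 367, 444, 407 and 442 in controls and 414, 608, 576 and 507 in knockouts. The knockouts at 30 °C thus lay above every other animal, whereas the genotypes overlapped at 22 °C. Group means were 415 ± 36.3 in controls and 526 ± 86 in knockouts at 22 °C (SD, n = 4 each), and 668 ± 28.7 in controls and 1204 ± 255 in knockouts at 30 °C (SD, n = 3 each).

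A few genes made up most of this sum. Averaged over the 14 libraries, Col3a1 (the chain of type III collagen) was highest at 119 scaled FPKM, followed by Col4a1 at 112 and Col4a2 at 97.5, the main basement membrane chains. Next came the type I chains Col1a1 at 68.5 and Col1a2 at 57.1, the type VI chains Col6a2 at 43.5 and Col6a1 at 43, and Col5a3, a type V chain, at 23.5. The chains of types I and III together took 32.1 ± 4.87% of the collagen sum in controls and 33.1 ± 7.81% in knockouts at 22 °C (SD, n = 4 each), and 29.2 ± 1.97% in controls and 43.4 ± 7.39% in knockouts at 30 °C (SD, n = 3 each). Col4a1 and Col4a2 together took 35.4 ± 2.71%, 36.4 ± 7.65%, 37 ± 2.45% and 24.5 ± 6.73% in the same order of groups. In knockouts at 30 °C, types I and III thus had the larger mean share, while in the other 3 groups Col4a1 and Col4a2 did.

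Of the 44 genes, 25 passed a floor on low values (FPKM of 1 or more in 3 or more libraries) and were tested among 13079 genes, and calls were made at an adjusted p under 0.05 in limma. At 30 °C, 13 of the 25 were higher in knockouts and 0 were lower, against 8.82% of all tested genes called higher and 5.28% called lower. The median log2 fold change was 0.65 over the 25 genes and 0.06 over all genes tested. In 16 of the 25 the knockouts lay above every control and in 1 below, against 22.2% and 14.6% of all genes. The filter keeps genes that are high in a single group, so these counts describe the genes that passed it. The 13 higher genes comprised 7 of 8 tested fibrillar genes, the 3 tested type VI genes, and 1 each of the basement membrane (of 3), multiplexin (of 2) and fibril-associated (of 4) genes. The tested transmembrane (2), hexagonal network (1), anchoring fibril (1) and unclassed (1) genes had none. The plot of knockout effects shows all 25 by class.

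**Figure D1:**
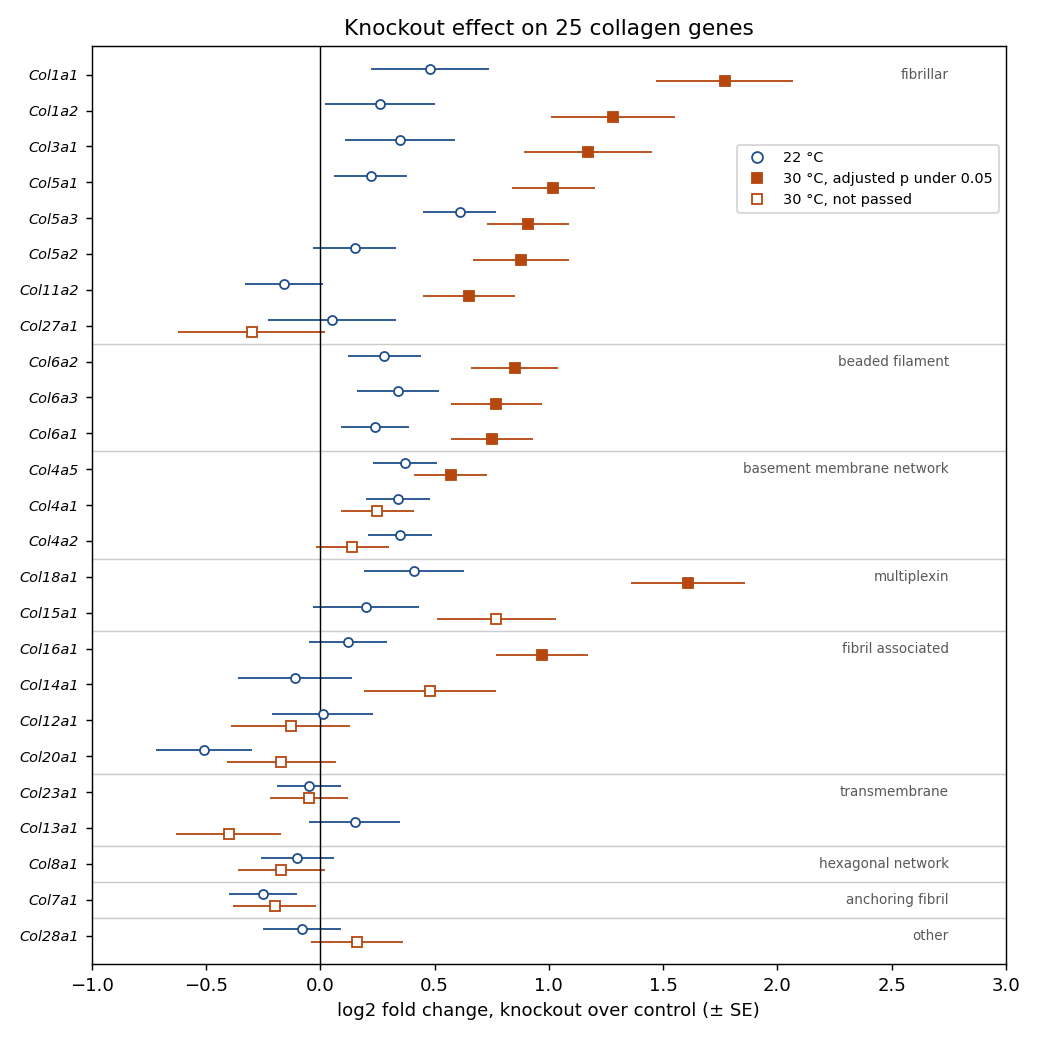
Log2 fold change of knockout over control (x axis, ± SE from the fit) for the 25 tested collagen genes (y axis, grouped by class), at 22 °C (circles) and 30 °C (squares, filled where limma's adjusted p was under 0.05). The filled squares are 13 genes, most of them fibrillar or type VI, all to the right of 0; none of the 25 passed at 22 °C.

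Leaving out single animals changed this count. It was 7 without control animal 2 at 30 °C, 8 without knockout animal 1, and 10 or 11 without any other of the 6 animals, where numbers only name the animals of a group. Col1a1, Col1a2, Col5a1, Col5a3, Col6a2, Col16a1 and Col18a1 passed in each of these 6 fits. Knockout animal 1 had the highest level of its group for 11 of the 13 genes.

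Among fibrillar genes, those of type I collagen, the main fibre of connective tissue, differed most at 30 °C. Col1a1 (ENSMUSG00000001506) was at 50.9, 46.5 and 52.9 scaled FPKM in controls and 282, 115 and 158 in knockouts. Each knockout lay above all controls, and animal 1 stood well above the other knockouts. Its log2 fold change was 1.77 (SE 0.30, limma's adjusted p = 0.00327), and 1.42 without animal 1 (limma's adjusted p = 0.0123).

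Its partner chain Col1a2 (ENSMUSG00000029661) was at 47.8, 41.1 and 52.5 scaled FPKM in controls and 167, 86.1 and 105 in knockouts, with a log2 fold change of 1.28 (SE 0.27, limma's adjusted p = 0.00937). Col3a1 (ENSMUSG00000026043), which forms type III collagen and joins type I in soft tissues, was at 98.7, 87.2 and 108 in controls and 319, 172 and 199 in knockouts. Both genes had the same order of knockouts, with animal 1 highest and animal 2 lowest, and no overlap with controls. The rise of Col3a1 was 1.17 on the log2 scale (SE 0.28, limma's adjusted p = 0.0149), and it did not pass without control animal 2 (1.10, limma's adjusted p = 0.0612) or without knockout animal 1 (0.92, limma's adjusted p = 0.0728).

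Type V collagen sits inside type I fibres and limits their width, and its 3 genes rose. Col5a1 was at 11, 9.2 and 10.4 scaled FPKM in controls and 27.4, 16.8 and 22.1 in knockouts (log2 difference 1.02, SE 0.18, limma's adjusted p = 0.00381). Col5a3 was at 23.8, 20.5 and 17.9 in controls and 45.1, 35.7 and 38.5 in knockouts (0.91, SE 0.18, limma's adjusted p = 0.00729). Col5a2 was at 8.07, 6.04 and 8.56 in controls and 19.3, 11 and 14.8 in knockouts (0.88, SE 0.21, limma's adjusted p = 0.0139). The knockouts lay above the controls in all 3 genes. Col5a2 did not pass without control animal 2 (0.75, limma's adjusted p = 0.0663), without knockout animal 1 (0.70, limma's adjusted p = 0.0692) or in a fit to the 30 °C groups alone (limma's adjusted p = 0.0525).

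The remaining tested fibrillar genes were Col11a2, a chain of type XI collagen, which is best known from cartilage, and Col27a1. Col11a2 was at 1.58, 1.97 and 1.29 scaled FPKM in controls and 2.82, 3.12 and 3.28 in knockouts, a log2 fold change of 0.65 (SE 0.20, limma's adjusted p = 0.046). The groups lay apart, but the call was lost in each of the 6 fits without an animal (limma's adjusted p from 0.0661 to 0.142) and after correction for GC content (0.39, limma's adjusted p = 0.213). Col27a1 was at 36.6, 20.6 and 28.4 in controls and 14.2, 32.3 and 24.5 in knockouts. These overlapped fully, with a log2 fold change of -0.30 (SE 0.32, limma's adjusted p = 0.596).

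**Figure D2:**
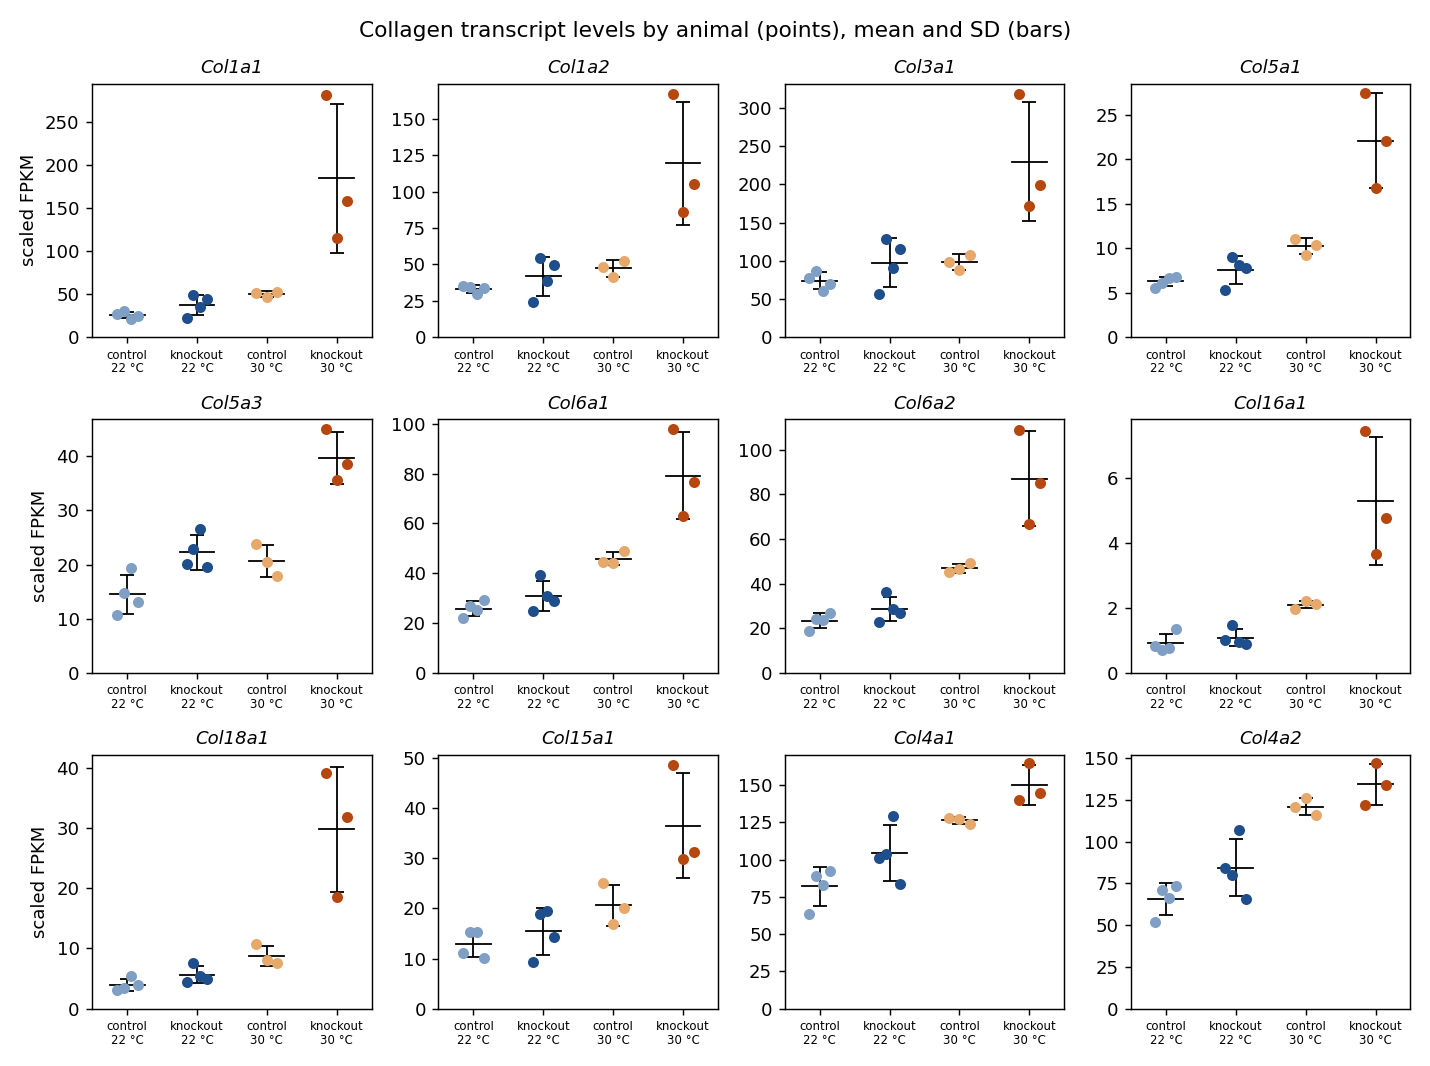
Scaled FPKM (y axis, linear and from 0, a scale per gene) of 12 collagen genes in each of the 14 animals (points) by group (x axis); horizontal bars are group means and error bars SD. For Col1a1, Col1a2, Col3a1 and Col18a1 the 3 knockouts at 30 °C sit above all other animals, while for Col4a2 they overlap the controls at 30 °C.

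The sequences before the transcription starts are shown for 4 risen genes and for Col27a1, which did not pass, because genes of a shared class moved together. They are the 250 bases before the RefSeq start (build GRCm38.p6), 5′ to 3′ on the gene's own strand. They were chosen among tested fibrillar and type VI genes whose window holds no annotated exon. Col11a2 and a Col6a2 window also met this and are not shown. Capitals mark matches on either strand to GGGCGG, the core of the GC box, to CCAAT or to TATAAA. The windows are chr1:45311288-45311537 (Col3a1, plus strand), chr2:27886175-27886424 (Col5a1, plus), chr9:20815068-20815317 (Col5a3, minus), chr1:90843972-90844221 (Col6a3, minus) and chr4:63215162-63215411 (Col27a1, plus).
Col3a1: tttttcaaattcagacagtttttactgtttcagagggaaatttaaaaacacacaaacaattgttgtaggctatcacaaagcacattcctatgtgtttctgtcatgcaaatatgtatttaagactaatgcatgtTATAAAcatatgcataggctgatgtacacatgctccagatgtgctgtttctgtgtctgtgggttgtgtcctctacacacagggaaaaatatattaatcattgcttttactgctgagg
Col5a1: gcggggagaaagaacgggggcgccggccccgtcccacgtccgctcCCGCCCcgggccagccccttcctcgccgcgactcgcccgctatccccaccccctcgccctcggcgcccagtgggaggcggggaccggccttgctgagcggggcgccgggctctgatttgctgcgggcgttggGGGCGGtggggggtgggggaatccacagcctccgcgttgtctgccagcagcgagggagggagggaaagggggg
Col5a3: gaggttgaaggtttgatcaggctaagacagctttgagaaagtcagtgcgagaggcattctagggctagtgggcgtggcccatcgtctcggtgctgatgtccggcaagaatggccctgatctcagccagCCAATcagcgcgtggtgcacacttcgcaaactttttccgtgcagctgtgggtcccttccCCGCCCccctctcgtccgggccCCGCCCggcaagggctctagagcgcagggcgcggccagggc
Col6a3: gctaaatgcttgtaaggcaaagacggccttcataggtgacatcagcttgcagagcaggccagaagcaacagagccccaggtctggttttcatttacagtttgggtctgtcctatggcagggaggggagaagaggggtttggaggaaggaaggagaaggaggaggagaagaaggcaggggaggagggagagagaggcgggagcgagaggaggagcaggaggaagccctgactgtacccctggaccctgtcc
Col27a1: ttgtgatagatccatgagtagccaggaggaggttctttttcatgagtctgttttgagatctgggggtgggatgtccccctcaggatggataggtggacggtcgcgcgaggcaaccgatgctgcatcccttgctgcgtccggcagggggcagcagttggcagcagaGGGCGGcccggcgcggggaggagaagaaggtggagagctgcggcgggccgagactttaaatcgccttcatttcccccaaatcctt
Col3a1 and Col5a1, both fibrillar and both risen, differ in these letters: the Col3a1 window holds TATAAA 117 bases before the start and no GGGCGG, and the Col5a1 window holds GGGCGG starting 205 and 73 bases before it and no TATAAA. Col5a3 has CCAAT at 122 bases and GGGCGG at 63 and 41 bases, Col27a1 has GGGCGG at 85 bases, and Col6a3 has none of the 3 motifs. The window of Col11a2, which is not shown, holds both GGGCGG and TATAAA. The RefSeq table held windows for 35 of the 44 genes. GGGCGG was present in 9 of the 13 windows of risen genes (69.2%), from 8 of the 11 risen genes with a window. Col1a1 and Col5a2 had no window, and Col6a2 and Col18a1 entered with alternative starts. The motif was also in 5 of the 10 windows of tested genes that did not pass at 30 °C. Untested collagen genes had it in 53.3% of windows, all collagen genes in 57.9% and all 32851 windows in 32.7%. CCAAT was in 38.5% of the windows of risen genes and 33.8% of all windows, and TATAAA in 15.4% and 12.4%. Matches to such short motifs are a description of the letters and no binding was measured.

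Type VI collagen forms filaments around fat cells, and its 3 common chains rose. Col6a2 was at 45.3, 46.3 and 49.1 scaled FPKM in controls at 30 °C and 109, 66.8 and 85.2 in knockouts (log2 difference 0.85, SE 0.19, limma's adjusted p = 0.0102). Col6a1 was at 44.7, 44.2 and 48.8 in controls and 98, 63.1 and 76.6 in knockouts (0.75, SE 0.18, limma's adjusted p = 0.0133). Col6a3 was at 14.1, 12.9 and 15.5 in controls and 31.2, 22.1 and 21.9 in knockouts (0.77, SE 0.20, limma's adjusted p = 0.0249). In each of the 3 genes the lowest knockout lay above the highest control, and the fold changes were within an SE of each other. Col6a1 did not pass without control animal 2 (limma's adjusted p = 0.0507) or knockout animal 1 (0.0643), and Col6a3 did not pass without either of them (0.0905 and 0.116, in that order) or without control animal 1 (0.068).

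The abundant basement membrane chains did not pass in knockouts against controls. Col4a1 (ENSMUSG00000031502) was at 128, 127 and 124 scaled FPKM in controls at 30 °C and 140, 165 and 145 in knockouts. The groups lay apart, yet the log2 fold change was 0.25 (SE 0.16, limma's adjusted p = 0.344), and Col4a1 was called at 30 °C with FPKM as deposited (0.54, limma's adjusted p = 0.0322), a scaling that moved the median of all genes to 0.31 and called 32.7% of them higher. Col4a2 (ENSMUSG00000031503) was at 121, 126 and 116 in controls and 122, 147 and 134 in knockouts, which overlapped (0.14, SE 0.16, limma's adjusted p = 0.623), and its sign turned after GC correction (-0.04). At 22 °C Col4a1 was at 63.6, 89.2, 83.1 and 92.1 in controls and 101, 104, 129 and 83.7 in knockouts (0.34, SE 0.14, limma's adjusted p = 0.239). Col4a2 was at 51.8, 70.8, 66.3 and 73.3 and at 84.2, 80.1, 107 and 65.9 there (0.35, SE 0.14, limma's adjusted p = 0.245). The genotypes overlapped in both genes at 22 °C. Their genes lie head to head, with RefSeq starts 21 bases apart on opposite strands, and their exons overlap. Because the counting is not stated to use strand, reads of the overlapping stretch cannot be assigned between them. The same limit holds for Col5a1 and Col15a1, whose exons overlap annotated genes on the opposite strand, and exons of Col3a1, Col7a1 and Col20a1 overlap an annotated gene on their own strand.

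Col4a5, a chain of the specialised networks known from kidney and smooth muscle, was far lower. It was at 1.07, 0.676 and 0.889 scaled FPKM in controls at 30 °C and 1.2, 2.43 and 1.84 in knockouts (log2 difference 0.57, SE 0.16, limma's adjusted p = 0.0336). The groups lay apart by a small margin, and the call was lost in 5 of 6 fits without an animal. Col4a3, Col4a4 and Col4a6, further chains of such networks, stayed under the filter. Col4a3 was at 0.194, 0.166, 0.297 and 0.367 scaled FPKM in controls and 0.182, 0.24, 0.285 and 0.263 in knockouts at 22 °C, and at 0.202, 0.0588 and 0.128 and 0.059, 0.146 and 0.051 at 30 °C. Col4a4 was at 0.217, 0.239, 0.246 and 0.286 and 0.183, 0.24, 0.188 and 0.263 at 22 °C, and at 0.127, 0.116 and 0.0911 and 0.146, 0.158 and 0.129 at 30 °C. Col4a6 was at 0.0624, 0.0186, 0.0332 and 0.0278 and 0.0367, 0, 0.0448 and 0.00769 at 22 °C, and at 0.159, 0.219 and 0.0606 and 0.076, 0.0649 and 0.0802 at 30 °C. The genotypes overlapped in all 3 genes at both temperatures, except for Col4a4 at 30 °C, where the knockouts lay just above the controls.

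The multiplexins Col15a1 and Col18a1 form proteoglycans of the basement membrane zone, and the end of the Col18a1 protein is released as endostatin. Col18a1 (ENSMUSG00000001435) was at 10.7, 8.06 and 7.54 scaled FPKM in controls at 30 °C and 39.1, 18.6 and 31.8 in knockouts. Every knockout was above every control, and the gene had the smallest p of the family (log2 difference 1.61, SE 0.25, limma's adjusted p = 0.00219). Col15a1 was at 25, 16.9 and 20.1 in controls and 48.6, 29.8 and 31.2 in knockouts. Its groups also lay apart, but it did not pass (0.77, SE 0.26, limma's adjusted p = 0.0679); it was called with FPKM as deposited and with libraries brought to 1 total of nuclear transcripts, which called 32.7% and 17% of all genes higher.

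Fibril-associated collagens lie on the surface of fibres. Col16a1 was at 1.97, 2.2 and 2.13 scaled FPKM in controls at 30 °C and 7.45, 3.64 and 4.77 in knockouts, with each knockout above each control (log2 difference 0.97, SE 0.20, limma's adjusted p = 0.00687). Its fitted fold of 1.97 was below the ratio of the mean levels, which was 2.52. A pseudocount of 1 was added before the log, and the fit averages logs rather than levels. Col14a1 (0.48), Col12a1 (-0.13) and Col20a1 (-0.17) did not pass. The log2 fold changes of the transmembrane Col13a1 and Col23a1, the hexagonal network gene Col8a1, the anchoring fibril gene Col7a1 and Col28a1 ranged from -0.40 to 0.16, and none of these 5 passed at 30 °C. Col13a1 was the gene whose knockouts all lay below the controls, at 1.64 to 1.75 against 2.4 to 2.77 scaled FPKM (-0.40, SE 0.23, limma's adjusted p = 0.287).

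At 22 °C, 0 of the 25 genes passed limma's test in knockouts against controls, where 0.91% of all tested genes were called higher and 1.06% lower. Before adjustment 5 had a p under 0.05 in limma, of which 4 were higher (Col4a1, Col4a2, Col4a5 and Col5a3) and Col20a1 was lower. The share of all genes with such a p at 22 °C is not given here, so this count has no background beside it. The median log2 fold change was 0.20 over the 25 genes and 0.00 over all genes, and the collagen median was 0.12 without knockout animal 2 and 0.34 without knockout animal 1. With FPKM as deposited 10 of the 25 were called higher, but that scaling moved the median of all genes to 0.24 and called 24.2% of them higher, and the collagen median minus that of all genes was 0.25 against 0.20 with the main scaling. The smallest adjusted p in limma was that of Col5a3 (0.074), which was at 10.7, 14.7, 19.4 and 13.1 scaled FPKM in controls and 20.1, 22.9, 26.6 and 19.5 in knockouts. Each knockout lay above each control, the last by a small margin (log2 difference 0.61, SE 0.16). Col5a3 was called without control animal 3, without the controls whose identifiers begin with R, with sample weights, after GC correction and with libraries brought to 1 total of nuclear transcripts.

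Col4a5 was the other gene whose groups lay apart at 22 °C, with 0.725 to 1.08 scaled FPKM in controls and 1.13 to 1.58 in knockouts (log2 difference 0.37, SE 0.14, limma's adjusted p = 0.213). Knockouts lay wholly above controls in 2 of the 25 genes and wholly below in 0 at this temperature, against 4.85% and 4.53% of all genes. The most abundant genes overlapped, Col4a1 and Col4a2 among them. Col1a1 was at 27.2, 29.9, 21 and 24.7 scaled FPKM in controls and 22, 48.6, 35 and 43.9 in knockouts, and Col3a1 at 77, 87.1, 60.6 and 69.7 and at 55.7, 129, 90.6 and 115. In both, knockout animals 2, 3 and 4 were above all controls and animal 1 was among or below them. Animal 1 was the lowest knockout at 22 °C for 9 of the 13 genes called at 30 °C.

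The knockout effects of the 2 temperatures were compared by an interaction, the effect at 22 °C minus that at 30 °C. None of the 25 genes passed limma's test, nor did any of the 13079 genes, of which 1694 had a p under 0.05 before adjustment. Before adjustment 10 collagen genes had a p under 0.05, each with the smaller effect at 22 °C. The median difference was -0.43 over the 25 genes and -0.05 over all genes, and the collagen median was -0.26 without knockout animal 1 at 22 °C. The smallest p-values were those of Col18a1 (-1.20, SE 0.34, limma's adjusted p = 0.201), Col5a1 (-0.79, SE 0.24, limma's adjusted p = 0.213) and Col16a1 (-0.85, SE 0.26, limma's adjusted p = 0.215). Col1a1 had the largest difference, -1.29 (SE 0.40, limma's adjusted p = 0.224). Without knockout animal 2 at 30 °C Col18a1 passed (-1.49, limma's adjusted p = 0.0409). A difference between temperatures was thus not shown for any collagen gene in the fit to all animals. Sex-linked transcripts separated the mice of the 2 temperatures, so such a difference could not be told apart from a difference by sex-linked expression.

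Ratios of chains within a library do not depend on the scaling. Of 11 listed pairs, 9 had enough reads, which gave 18 exact two-sided permutation tests. The exact permutation test cannot give less than p = 0.0286 for 4 against 4 animals or p = 0.1 for 3 against 3, and no adjusted value under 0.0571 was possible over the 18 tests, so none could pass. The smallest Benjamini-Hochberg adjusted value of these exact tests was 0.2. Col1a1 and Col1a2 build the same trimer, in which Col1a1 is the more frequent chain. Their ratio was 0.776, 0.867, 0.719 and 0.735 in controls and 0.921, 0.898, 0.905 and 0.882 in knockouts at 22 °C (exact permutation p = 0.0286, adjusted 0.2). It was 1.06, 1.13 and 1.01 in controls and 1.68, 1.34 and 1.5 in knockouts at 30 °C (exact permutation p = 0.1). Knockouts had the higher ratio at each temperature without overlap, so the Col1a1 level was further above its control than the Col1a2 level was.

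Col3a1 over Col1a1 went the other way, at 2.82 to 2.91 in controls and 2.53 to 2.65 in knockouts at 22 °C (exact permutation p = 0.0286, adjusted 0.2), and at 1.88 to 2.05 and 1.13 to 1.49 at 30 °C (exact permutation p = 0.1). Within each group at 22 °C this ratio was narrow although both genes varied between animals. In knockouts at 30 °C it spread more widely. Col4a1 over Col1a1, basement membrane against fibre, was 2.34 to 2.73 in controls and 0.496 to 1.44 in knockouts at 30 °C (log2 difference -1.54, exact permutation p = 0.1), and overlapped at 22 °C (2.34 to 3.96 and 1.91 to 4.59). Col15a1 over Col18a1 was 2.1 to 2.67 in controls and 0.98 to 1.6 in knockouts at 30 °C (exact permutation p = 0.1). Col4a1 over Col4a2, a pair of partner chains, was 1 to 1.07 in controls and 1.08 to 1.15 in knockouts at 30 °C, and Col6a1 over Col6a2 was 0.953 to 0.993 and 0.897 to 0.944 (exact permutation p = 0.1 for each). Col5a1 over Col1a1 was 0.197 to 0.217 and 0.097 to 0.146 at 30 °C, while Col5a2 over Col5a1 and Col6a3 over Col6a1 overlapped between genotypes at both temperatures.

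**Figure D3:**
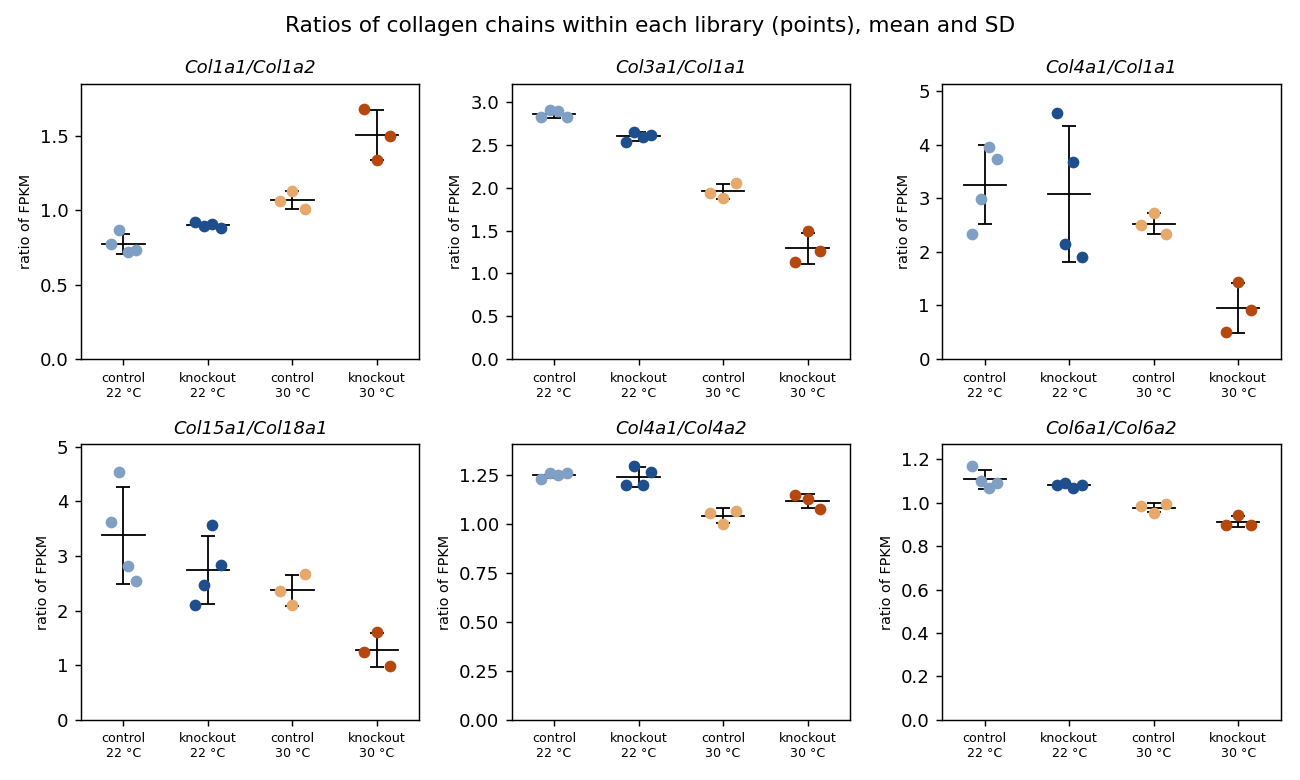
Ratio of the FPKM of a pair of collagen genes (y axis, linear, from 0) within each of the 14 libraries (points) by group (x axis), with group mean and SD. Col1a1/Col1a2 is higher and Col3a1/Col1a1 lower in knockouts at both temperatures, while Col4a1/Col4a2 and Col6a1/Col6a2 stay between 0.897 and 1.3.

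The 19 genes under the filter stayed below 1 scaled FPKM in all libraries, the highest value being 0.938 for Col26a1 in a knockout at 30 °C. Of these, 12 were listed at 0 in at least 1 library and 13 had a mean under 0.1. They included Col2a1, Col9a1, Col9a2, Col10a1 and Col11a1, known from cartilage, with group means of at most 0.205. Col9a3, also of cartilage, had group means of 0.181 to 0.473, and Col17a1, known from epithelia, of 0.0344 to 0.338. Col6a6 had the highest mean over the 14 libraries, at 0.516 to 0.831 scaled FPKM in controls at 22 °C and 0.192 to 0.29 in knockouts at 30 °C. They were fitted only in an alternative with no filter, where 0 of the 19 passed limma's test in knockouts against controls at either temperature (1 at 22 °C and 7 at 30 °C with a p under 0.05 before adjustment). For all genes of that fit, the share with such a p is not given here. In that fit Col4a4 was higher at 22 °C than at 30 °C in controls (0.17, limma's adjusted p = 0.00468) and Col4a3 in knockouts (0.20, limma's adjusted p = 0.0298), while 3 genes in controls and 4 in knockouts were lower.

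Genes that make and handle collagen were taken from lists. Of 25 tested genes for collagen hydroxylation, folding and export, 5 rose in knockouts at 30 °C and 0 fell. Of all tested genes 8.82% were called higher and 5.28% lower at 30 °C, the shares to set beside each list. The median log2 fold change was 0.23 against 0.06 for all genes. Creb3l1, a transcription factor that activates collagen genes, was at 4.27 to 4.67 scaled FPKM in controls and 9.31 to 13.5 in knockouts (log2 difference 1.18, SE 0.14, limma's adjusted p = 0.000399). Sec24d, a coat protein of the vesicles that export procollagen, was at 3.86 to 5.76 and 7.72 to 9.59 (0.78, SE 0.15, limma's adjusted p = 0.00526). The prolyl 3-hydroxylase gene P3h3 (0.74) and the glycosyltransferase gene Colgalt1 (0.52) also rose. Serpinh1, the collagen chaperone, was at 127 to 131 and 130 to 203 and did not pass (limma's adjusted p = 0.256).

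Of 10 tested genes for trimming and crosslinking, 3 rose at 30 °C and 0 fell (median 0.54), against 8.82% and 5.28% of all tested genes. Loxl1 and Lox, which crosslink elastin and collagen, had log2 fold changes of 1.81 (SE 0.40, limma's adjusted p = 0.0113) and 0.84 (SE 0.23, limma's adjusted p = 0.0262). Loxl1 was at 11.3, 12.5 and 12.6 scaled FPKM in controls and 47.9, 21.9 and 85 in knockouts, which lay apart. Pcolce, an enhancer of procollagen trimming, rose by 0.69. Among 16 partners of fibres, 4 rose and 1 fell (median 0.49): the small proteoglycans Lum (1.10), Dcn (0.90) and Fmod (0.62) and fibronectin, Fn1 (0.94), rose, and Prelp, a proteoglycan that ties fibres to basement membranes, fell from 141 to 222 in controls to 65.8 to 104 in knockouts (-1.25, SE 0.24, limma's adjusted p = 0.00573). Of 17 basement membrane partners, Lama2, a laminin chain, rose by 0.47 and Smoc2 fell by 0.73, with a median of 0.08. Mep1a and Mep1b were listed at 0 in every library.

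The list of collagen breakdown, which holds proteases and their inhibitors, had the most calls of these lists at 30 °C. Of its 19 tested genes 9 were higher and 1 lower (median 0.57), against 8.82% and 5.28% of all tested genes. The largest was Mmp12, the macrophage elastase, at 0.997, 1.42 and 10.6 scaled FPKM in controls and 119, 26.3 and 27.1 in knockouts (log2 difference 3.56, SE 0.68, limma's adjusted p = 0.00553). Ctss (2.87), the protease inhibitor gene Timp1 (1.78) and the collagen-uptake receptor Mrc1 (1.36) followed. A further inhibitor gene, Timp2, also rose (1.35, limma's adjusted p = 0.00669). Timp4, another inhibitor gene, was the 1 called lower, at 42.1 to 73.4 in controls and 18.6 to 27.8 in knockouts (-1.19, SE 0.29, limma's adjusted p = 0.0156). Mmp1a was listed at 0 in every library. Of 12 collagen receptors, Lair1 (0.93), Ddr2 (0.65) and Antxr2 (0.60) rose and 0 fell (median 0.42).

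The TGF-β pathway is the best known inducer of fibrillar collagen genes. Of its 22 tested genes 8 rose at 30 °C and 1 fell (median 0.43), against 8.82% and 5.28% of all tested genes. Lrrc32, which holds latent TGF-β at the cell surface, rose by 2.03 on the log2 scale (SE 0.24, limma's adjusted p = 0.000319), Tgfb1, the ligand, by 1.01 (SE 0.25, limma's adjusted p = 0.0184), and the Smad inhibitor gene Skil and the matrix gene Tgfbi by 0.91 and 0.89. Ltbp2 fell from 36.7 to 43 scaled FPKM in controls to 8.57 to 15.3 in knockouts (-1.76, SE 0.22, limma's adjusted p = 0.000399). Ccn2, a common target gene of the pathway, did not pass (0.50, limma's adjusted p = 0.26). At 22 °C 0 of the 120 tested genes of these 7 lists passed limma's test, where 0.91% of all tested genes were called higher and 1.06% lower. Before adjustment 14 of the 120 had a p under 0.05, and the share of all genes with such a p is not given here.

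Markers of several cell types moved with the collagen genes at 30 °C, where 8.82% of all tested genes were called higher and 5.28% lower. Of 12 macrophage markers, 10 rose and 0 fell (median log2 fold change 1.85), led by Cd68 (2.61), Lyz2 (2.52), C1qb (2.23) and C1qc (2.16). Their summed level was 156, 215 and 493 scaled FPKM in controls and 2059, 728 and 1185 in knockouts. The knockouts ranked as they did for Col1a1, but this order was not particular to macrophage markers. The summed fibroblast, Schwann cell, skeletal muscle and cartilage and bone markers had it too. The endothelial, mural, brown adipocyte and epithelial sums had other orders. Of 15 tested fibroblast markers 4 rose, Lum, Dcn, Pcolce and Pdgfra (median 0.53), and the first 3 are also in the matrix lists. The summed fibroblast markers overlapped, at 850 to 1217 in controls and 982 to 1412 in knockouts. Of 12 brown adipocyte markers 5 fell and 0 rose, among them Adipoq (-1.24), Cidec (-1.21) and Ucp1 (-1.31), and their sum was 12687 to 15576 in controls and 7096 to 9263 in knockouts. The part of these cell types in the collagen result was not tested.

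The other marker lists differed in their share of calls at 30 °C. Endothelial markers had 1 of 12 higher, Cldn5 (2.39), which is near the 8.82% of all tested genes, and a median of -0.21. Their sum was 541 to 596 scaled FPKM in controls and 908 to 994 in knockouts, of which Cldn5 alone was 98 to 108 and 504 to 604. Mural (10 tested) and skeletal muscle markers (12 tested) had no calls in limma (1 and 0 with a p under 0.05 before adjustment), although the muscle median was 1.77, and the muscle sum was 16189, 5560 and 77.4 in controls and 10137, 2463 and 7862 in knockouts. Schwann cell markers had 1 of 10 higher (Pmp22, 0.80), also near the share of all genes. Of 3 tested cartilage and bone markers Spp1 (2.30) and Sox9 (1.45) rose, with Matn3 and Ibsp listed at 0 in every library, and of 6 epithelial and mesothelial markers Krt19 (-2.47), Krt18 (-2.32), Krt8 (-2.31) and Epcam (-1.41) fell. At 22 °C the 9 marker lists gave 3 calls in all, Ppargc1a (1.14), Adipoq (-0.79) and Cidec (-0.71). Of all tested genes 1.97% were called in either direction at 22 °C. The macrophage sum was 77.7 to 131 in controls and 128 to 250 in knockouts at this temperature.

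**Figure D4:**
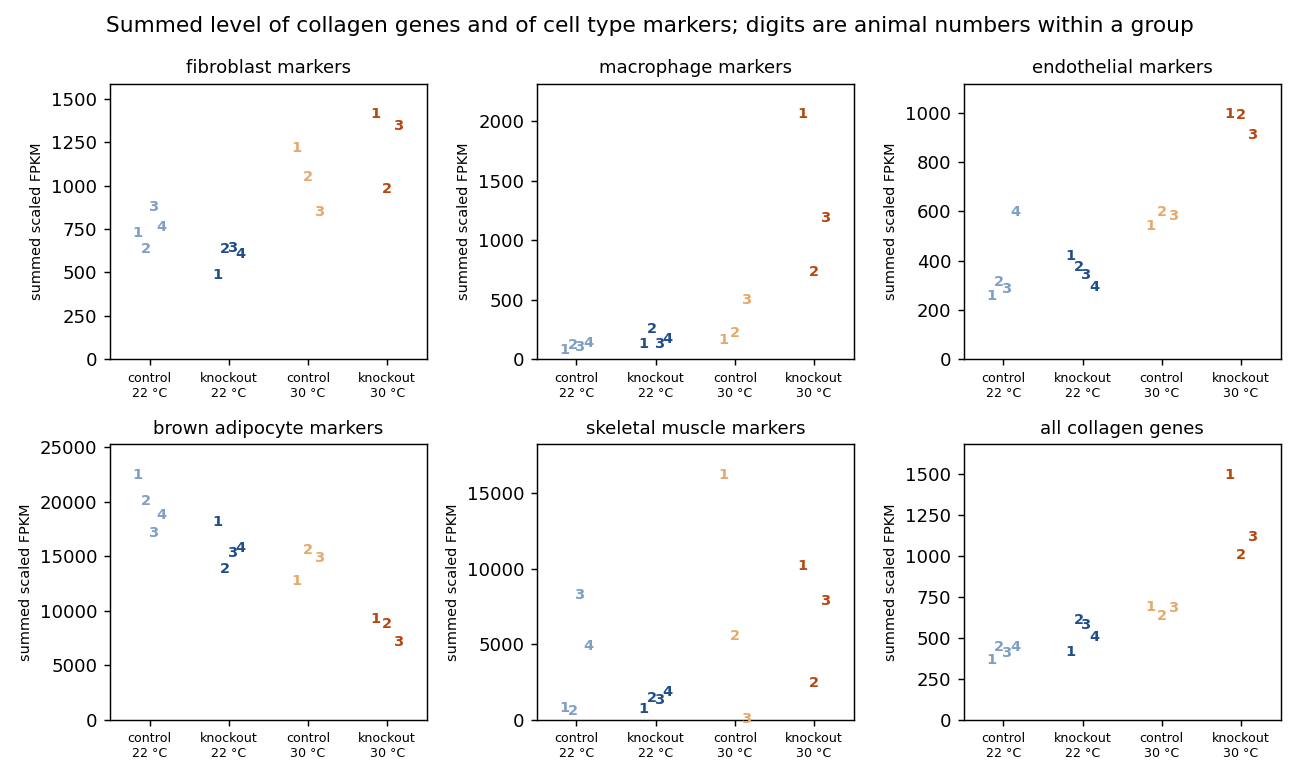
Summed scaled FPKM (y axis, linear, from 0) of 5 marker lists and of the 44 collagen genes for each of the 14 animals (digits, the animal's number within its group) by group (x axis). In knockouts at 30 °C the collagen, macrophage, fibroblast and skeletal muscle sums are each highest in animal 1, then 3, then 2. Muscle markers spread widely within groups.

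Housing temperature was compared within each genotype, as 22 °C against 30 °C. These comparisons use the same animals as the knockout comparisons. The mice at the 2 temperatures also differed in sex-linked expression, so temperature and sex-linked expression cannot be told apart. In controls 14 of the 25 genes were lower at 22 °C and 0 higher, against 20.6% of all genes called lower and 18.2% higher (38.8% in either direction), with a median log2 fold change of -0.57 against -0.05. In knockouts 17 were lower and 0 higher, against 29.4% and 21.8% (51.1% in either direction), with a median of -0.81 against -0.07. Without overlap between the temperatures, 16 of the 25 were lower and 0 higher in controls, against 23.6% and 19.9% of all genes, and 16 were lower and 0 higher in knockouts, against 31.7% and 24%.

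The largest differences in controls were those of Col6a2 (-0.99, SE 0.17, limma's adjusted p = 0.00136), Col18a1 (-0.98, SE 0.24, limma's adjusted p = 0.00683) and Col1a1 (-0.95, SE 0.28, limma's adjusted p = 0.0191). Col1a1 did not pass without control animal 1 or animal 3 at 30 °C (limma's adjusted p = 0.0514 and 0.0558) or without the controls whose identifiers begin with R (-0.79, limma's adjusted p = 0.0857). Col6a2 was at 18.7, 24.2, 23.5 and 26.8 scaled FPKM in controls at 22 °C, below the 45.3 to 49.1 of controls at 30 °C. Col18a1 was at 3.1, 3.38, 5.4 and 3.98, below 7.54 to 10.7. In knockouts the largest were Col1a1 (-2.24, SE 0.28, limma's adjusted p = 8.95e-05), Col18a1 (-2.18, SE 0.24, limma's adjusted p = 4.25e-05) and Col6a2 (-1.56, SE 0.17, limma's adjusted p = 4.74e-05). The basement membrane genes Col4a1 (-0.63 in controls, -0.53 in knockouts) and Col4a2 (-0.89 and -0.68) were also lower at 22 °C in both genotypes.

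These temperature calls moved with the GC content of the transcripts. The median GC content was 56.4% over the 25 collagen genes and 50.1% over all tested genes with a transcript. After each library was corrected for GC content, 5 of the 25 were lower and 2 higher at 22 °C in controls, against 12.5% and 9.94% of all genes. In knockouts 13 were lower and 2 higher, against 26% and 15.2%. Col6a2, Col6a1, Col4a2, Col8a1 and Col28a1 remained lower in controls, while Col1a1 (-0.50, limma's adjusted p = 0.251), Col18a1 (-0.47) and Col4a1 (-0.24) did not pass. In knockouts Col1a1 (-1.69, limma's adjusted p = 0.00105) and Col18a1 (-1.50, limma's adjusted p = 0.000275) remained lower and Col4a1 (-0.08) and Col4a2 (-0.01) did not pass. In controls the count without the correction was also 8 without control animal 3 at 30 °C, and 9 without control animal 1 at either temperature or control animal 2 at 22 °C. The same correction left 12 of the 13 knockout calls at 30 °C, all but Col11a2.

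**Figure D5:**
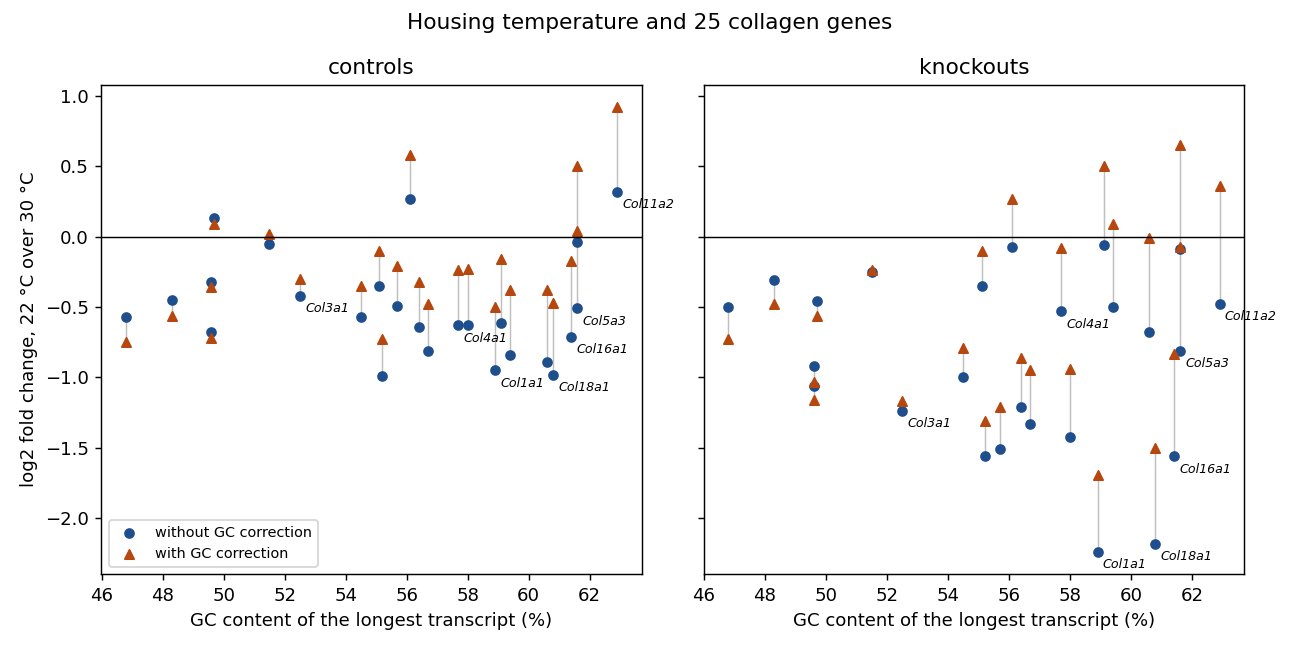
Log2 fold change of 22 °C over 30 °C (y axis) against the GC content of the longest transcript in percent (x axis) for the 25 collagen genes, in controls (left) and knockouts (right), without (circles) and with (triangles) a GC correction of each library; lines join the values of a gene. The correction moved genes of 54.5% GC and more up and those of 49.7% and less down, and left Col1a1 and Col18a1 in knockouts at -1.69 and -1.50.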

How the data were processed

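Transcript levels of 14 brown adipose tissue libraries (total RNA, Illumina HiSeq, per the labels) were deposited by the authors as FPKM per Ensembl gene, against the mouse build mm9 per the submitters' processing notes. The aligner, the counting method and its use of strand are not given in the sources used here. Of 35275 identifiers, 34490 matched GENCODE M21. In 13623 genes with 1 transcript, 90.5% of 32447 low values were within 0.05 of a whole number of fragments, which gave the depth of each library, 15.9 to 21.3 M fragments.

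Each library was divided by its median ratio over 10049 nuclear genes of FPKM 1 or more in every library, so that the median gene defines no change. Log2(scaled FPKM + 1) of the 13079 genes with FPKM of 1 or more in 3 or more libraries was fitted with limma 3.58.1 (R 4.3.3, eBayes with trend, 4 group means, all 14 libraries), with Benjamini-Hochberg adjustment over all of them for each of 5 comparisons. The pseudocount of 1 makes changes of low genes smaller. Ratios of chains were tested by exact permutation over animals (scipy 1.17.1, Python 3.11.15, numpy 2.4.6, pandas 2.3.3), and figures were drawn with matplotlib 3.10.9. No 2 libraries were identical (highest Spearman correlation 0.9877). Animals carry no replicate numbers in the labels and were numbered in accession order. On simulated data of the 30 °C comparison (12673 genes, 200 changed), 59% of changes of log2 size 1 and 100% of size 2 were recovered. The simulation gave all genes the same relative spread between animals beyond that of counting, so its recovery need not hold for the collagen genes.

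Values by animal are given for the 8 collagen genes of highest mean, those called in a knockout comparison, the type IV genes, the 3 with the smallest interaction p and the 3 largest called changes with temperature in each genotype, and other collagen genes by ranges. In each of 16 lists (7 of collagen handling and signalling, 9 of cell type markers) up to 4 called genes in each direction were named by size. Timp2 was named outside this limit. Col27a1, Col15a1, Col13a1, Col6a6, Serpinh1 and Ccn2 were singled out after their values were seen. Members and lists were chosen with earlier results of these data known. Of the 16 fibroblast markers listed, 5 are also in other lists. The alternatives were 12 settings of the fit and leaving out each animal. Promoter windows are from RefSeq (GRCm38.p6), a build other than that of the files, and were joined by symbol.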

Additional observations from a re-analysis of the deposited data

Results flagged for a closer look

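Each of 50 sets of 4 animals (25 tested collagen genes in both genotypes at 22 °C) was examined for an animal whose gap to the nearest other, divided by the range, exceeded Dixon's 95% critical value, which chance gives in about 1 of 20 sets. In 3 sets, all of controls at 22 °C, it did so. Col8a1, a chain of short network collagens, was at 1.98 scaled FPKM in animal 4 and at 0.724 to 0.884 in the others. Col28a1 was at 1.15 in the same animal and at 0.351 to 0.395 in the others. Col4a5 was at 1.08 in animal 3 and at 0.725 to 0.738 in the others. Animals 3 and 4 are the controls whose identifiers begin with R.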

How the results depend on the processing

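At 30 °C the number of collagen genes higher in knockouts stayed between 10 and 15 in the 12 settings (15 with FPKM as deposited, where 32.7% of all genes were called higher and their median was 0.31), and between 7 and 11 when single animals were left out; their median log2 fold change was 0.80 with a pseudocount of 0.1, 0.06 with no filter, 0.87 with a mean FPKM of 5 or more, 0.86 as deposited and 0.52 after quantile normalization. At 22 °C the number higher was 10 as deposited and 1 (Col5a3) with equal totals of nuclear genes, with sample weights, without the controls with R identifiers and after GC correction, and 0 to 1 without single animals. The median at 22 °C was 0.00 with no filter, 0.49 as deposited, 0.34 with equal totals, and 0.12 to 0.34 without single animals. The median of the difference between temperatures was -0.08 with no filter, -0.57 with a mean of 5 or more, -0.28 with sample weights and -0.58 to -0.26 without single animals, which gave 0 to 1 calls (Col18a1). For 22 °C against 30 °C in controls, no filter gave 1 gene higher and a median of -0.23, GC correction gave 2 higher, 5 lower and a median of -0.30, and leaving out single animals gave 8 to 14 lower. In knockouts, no filter gave 1 higher and a median of -0.31, a mean of 5 or more gave -1.23, quantile normalization gave -0.66 and GC correction gave 2 higher.

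Among the genes named by rule, signs turned for Col11a2 at 22 °C as deposited (0.05), Col4a2 at 30 °C after GC correction (-0.04), Col5a3 (0.04) and Col4a5 (0.02) with temperature in controls after GC correction, Col4a5 after quantile normalization with temperature in controls (0.13) and in knockouts (0.01), and Col11a2 with temperature in knockouts after GC correction (0.36). Of the other tested collagen genes, GC correction turned the sign with temperature of Col7a1 in controls (from -0.04 to 0.50, limma's adjusted p = 0.027) and in knockouts (from -0.09 to 0.65, 0.00353), and in knockouts that of Col13a1 (from -0.06 to 0.50, 0.0386), Col27a1 (from -0.50 to 0.09) and Col20a1 (from -0.07 to 0.27), and that of Col7a1 in the difference between temperatures (from -0.05 to 0.15). Without single animals, Col4a1 ranged from -0.02 to 0.20 in the difference between temperatures and Col4a5 from -0.13 to 0.03 with temperature in controls. The log2 ratio difference ranged from -0.03 to 0.01 for Col4a1 over Col4a2 and from -0.37 to 0.05 for Col4a1 over Col1a1 at 22 °C, and from -0.03 to 0.12 for Col6a3 over Col6a1 at 30 °C. The causes were not tested, except that dropping the filter adds 19 genes near 0 to each median and leaving out an animal leaves fewer samples. No paired analysis was possible because the labels give no replicate numbers shared between groups. With 3 animals a group at 30 °C, genes that did not pass may still differ. The simulated recovery of 59% at log2 size 1 took the same spread for all genes and need not hold for the collagen genes. The 19 genes under the filter stayed below 1 scaled FPKM.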
